A study of Mus musculus with 10 samples.

Results

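The SoxC and SoxD transcription factors were described in mouse glioma precursor cells. The members were the 6 genes Sox4, Sox11 and Sox12 (SoxC) and Sox5, Sox6 and Sox13 (SoxD), taken by gene symbol out of the 23230 features of the deposited RNAseq matrix, and all 6 were found. The study derived astrocytes from the cortex of C57BL/6 pups at postnatal day 5 that lacked Ink4a/Arf, and infected them with a retrovirus carrying EGFRvIII, a constitutively active truncated form of the human EGF receptor (AstroEGFR, 3 libraries, 1 from each of 3 astrocyte batches). AstroEGFR grafted into CD1 Nude mice gave tumours, from which glioma propagating cells were cultured again (PT, 4 libraries, of which PT1 and PT4 go back to batch 1, PT2 to batch 2 and PT3 to batch 3). AstroEGFR of each batch were also infected with a vector for Zfp423, a zinc finger transcription factor (AstroEGFR_Zfp423, 3 libraries). All groups therefore lacked Ink4a/Arf and carried EGFRvIII. AstroEGFR grew with serum, whereas the medium of PT held EGF and FGF2 and no serum, so the medium and the passage through a tumour cannot be told apart. Both comparisons use the same 3 AstroEGFR libraries.

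Sox factors bind the minor groove of DNA through an HMG box, bend it, and act with partner factors. The SoxC genes are known from neuroblasts and immature neurons, where they favour the expression of neuronal genes, and Sox4 in gliomas is known as a target of TGF-beta that helps to keep Sox2 on in glioma initiating cells. The SoxD proteins have no activation domain of their own, bind DNA as dimers formed through a coiled coil, and work by helping or hindering other Sox factors. They help Sox9 at cartilage genes and restrain Sox9 and Sox10 in oligodendrocyte precursors.

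The sequence just before the start of 3 members is shown because Sox6 and Sox11 gave the widest differences between libraries of the same batch and Sox5 is the closest relative of Sox6. Each run is the 250 bases upstream of a RefSeq start on GRCm38.p6, read 5′ to 3′ on the minus strand, with matches to the Sox core in capitals. The windows are chr6:143947107-143947356 for Sox5, chr7:116038745-116038994 for the outermost of 6 listed Sox6 starts, and chr12:27342719-27342968 for Sox11. The authors' files were made on mm9 and hold no coordinates, so these windows were joined to the values by symbol only.
Sox5: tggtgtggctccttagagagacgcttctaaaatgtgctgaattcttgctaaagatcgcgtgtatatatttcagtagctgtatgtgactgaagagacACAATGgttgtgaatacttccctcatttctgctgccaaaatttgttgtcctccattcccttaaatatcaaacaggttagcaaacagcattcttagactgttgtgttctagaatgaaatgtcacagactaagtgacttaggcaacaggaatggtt
Sox6: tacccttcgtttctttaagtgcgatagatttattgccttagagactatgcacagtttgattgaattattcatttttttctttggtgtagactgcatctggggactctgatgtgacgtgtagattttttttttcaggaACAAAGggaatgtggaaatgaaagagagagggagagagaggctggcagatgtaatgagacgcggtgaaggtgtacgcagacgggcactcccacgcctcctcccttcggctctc
Sox11: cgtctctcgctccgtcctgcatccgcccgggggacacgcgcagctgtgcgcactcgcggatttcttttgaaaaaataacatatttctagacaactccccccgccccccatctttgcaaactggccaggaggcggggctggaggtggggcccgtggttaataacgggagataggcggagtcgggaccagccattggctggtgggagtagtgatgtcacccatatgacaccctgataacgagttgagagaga
The Sox core was searched as ACAAAG and ACAATG on both strands. It begins 154 bases before the start in the Sox5 window and 113 bases before it in this Sox6 window, while the Sox11 window holds none. Of the 11 windows listed for the 6 genes, 6 held the core, namely the window of Sox5 and 5 of the 6 windows of Sox6. Of the 32851 mouse promoter windows of this length that were searched, 25.2% did. That set does not cover every chromosome. The windows of Sox4, Sox11, Sox12 and Sox13 held none. The site GCACCC, to which ZFP423 is known to bind as an inverted pair, occurred on either strand in 0 of the 11 windows and in 13.3% of the 32851. The pair with 2 bases between its copies occurred in 0 of the 11 and in 8 of the 32851. A match is a description of these letters and not a bound site, and the lack of one says only that the letters are not in this window.

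The values are FPKM, which are scaled to transcript length, so levels can be set side by side between genes. Their sum ranged from 361102 to 860068 between libraries, and small non-coding RNA and histone features made up from 0.316% to 54.8% of it. FPKM hold no counts. A relative depth, taken from the commonest ratio between libraries over weakly detected features, was 0.0738 of that of PT1 in AstroEGFR_3. It could not be fixed for PT3, which came out at 0.480 of PT1 but 0.0915 of AstroEGFR_1. The other libraries lay at 0.507 to 0.979 of PT1. Zfp423 itself was listed at 4.30, 3.25 and 3.48 FPKM in AstroEGFR, at 0.837, 2.78, 0.641 and 1.77 FPKM in PT (PT1 first), and at 15.7, 9.73 and 105 FPKM in the 3 AstroEGFR_Zfp423 libraries, so the 3 libraries labelled as carrying the vector were the highest. Libraries of batch 2 were the only ones with Xist, which is transcribed from the inactive X chromosome, at 20.4 to 34.9 FPKM in 3 of 3 against at most 0.0403 FPKM in the 7 others. The Y-linked Ddx3y showed the reverse, with at most 0.114 FPKM in batch 2 and 14.1 to 57.8 FPKM elsewhere, so the batch 2 labels hold in all 3 groups.

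Sox4 was by far the leading member in AstroEGFR, PT and AstroEGFR_Zfp423 alike. It was listed at 101.7, 48.9 and 53.7 FPKM in AstroEGFR_1 to AstroEGFR_3, at 157.8, 51.1, 83.4 and 164.2 FPKM in PT (PT1 first), and at 63.6, 33.7 and 83.1 FPKM in the AstroEGFR_Zfp423 libraries of batches 1 to 3. PT2 and PT3 lay within the range of AstroEGFR, and PT1 and PT4, both of batch 1, lay above it. Sox4 stood above 87.4% to 98.8% of all features in each library and made up 69.3% to 89.9% of the summed FPKM of the SoxC genes.

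Sox11, the SoxC gene most closely tied to neuroblasts, was far less steady. It was listed at 5.43, 17.8 and 2.06 FPKM in AstroEGFR_1 to AstroEGFR_3, at 13.2, 11.7, 2.20 and 18.5 FPKM in PT, and at 9.13, 4.20 and 17.6 FPKM in AstroEGFR_Zfp423. Its range within AstroEGFR alone was 8.67-fold, the groups overlapped throughout, and both libraries of batch 3 without the Zfp423 vector were the lowest of their group. Sox12, the weakest activator of the SoxC genes, was listed at 6.00, 3.84 and 7.67 FPKM in AstroEGFR, at 6.44, 6.61, 9.23 and 19.4 FPKM in PT, and at 4.39, 6.48 and 5.37 FPKM in AstroEGFR_Zfp423. PT4 stood apart as the highest, and the other 9 libraries lay within 3.84 to 9.23 FPKM.

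**Figure D1:**
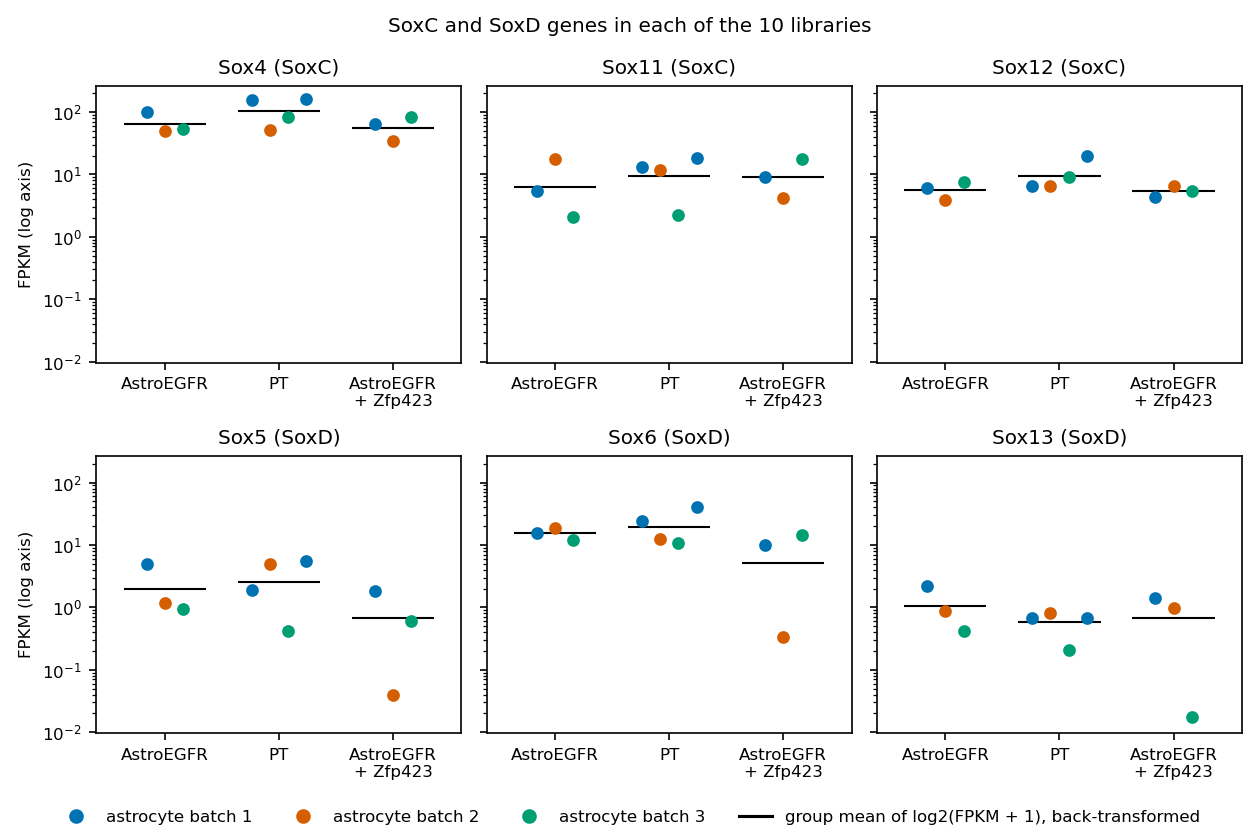
Each panel plots 1 gene, with the 3 groups on the horizontal axis and FPKM on a logarithmic vertical axis. Each point is 1 library coloured by astrocyte batch and the bar is the group mean on the log2(FPKM + 1) scale. The points of the groups overlap for all 6 genes, and the lowest Sox6 value, 0.340 FPKM, belongs to the AstroEGFR_Zfp423 library of batch 2.

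Sox6 was the main SoxD transcript. It was listed at 15.6, 18.7 and 12.2 FPKM in AstroEGFR, at 24.5, 12.3, 10.7 and 40.3 FPKM in PT, and at 10.0, 0.340 and 14.4 FPKM in AstroEGFR_Zfp423. The 3 AstroEGFR libraries were close together, PT libraries of batch 1 lay above them, and the Zfp423 library of batch 2 was far below every other. Sox6 made up 68.2% to 95.9% of the summed FPKM of the SoxD genes in 9 libraries and 25.3% in AstroEGFR_2_Zfp423.

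Sox5, its closest relative, was weak, at 4.98, 1.19 and 0.939 FPKM in AstroEGFR, 1.93, 4.94, 0.422 and 5.62 FPKM in PT, and 1.83, 0.0392 and 0.604 FPKM in AstroEGFR_Zfp423. Its value was lower with Zfp423 than without in each of the 3 batches, although the groups overlapped. Sox13 was the lowest of the members in AstroEGFR and PT, at 2.19, 0.873 and 0.410 FPKM in AstroEGFR, 0.671, 0.811, 0.209 and 0.668 FPKM in PT, and 1.39, 0.962 and 0.0175 FPKM in AstroEGFR_Zfp423. In AstroEGFR_2_Zfp423 it supplied 71.7% of the summed SoxD FPKM at a level close to that of its parent, with Sox5 and Sox6 both listed near 0. A value near 0 in this matrix need not mean a low transcript level, since Gapdh, which every cell uses, was listed at 0.0204 FPKM in AstroEGFR_1, 0.0206 in PT1, 0.0106 in PT4 and 50.1 in PT3, and at 1.16 to 2.52 FPKM in the other 6 libraries. Sox5 and Sox6 are long genes with 14 and 16 transcripts in the GENCODE M21 annotation and overlap antisense transcripts (Sox5os1 and Sox6os among them), none of which is a feature of the matrix. The labels and the methods name different library kits, and whether reads were counted by strand is not given in the sources used here, so reads of these genes and of their antisense partners cannot be told apart. The same holds for Sox4, a gene with a single exon, and Gm26735, which it overlaps and which is also no feature of the matrix. Sox11, likewise of a single exon, overlaps no annotated gene.

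**Figure D2:**
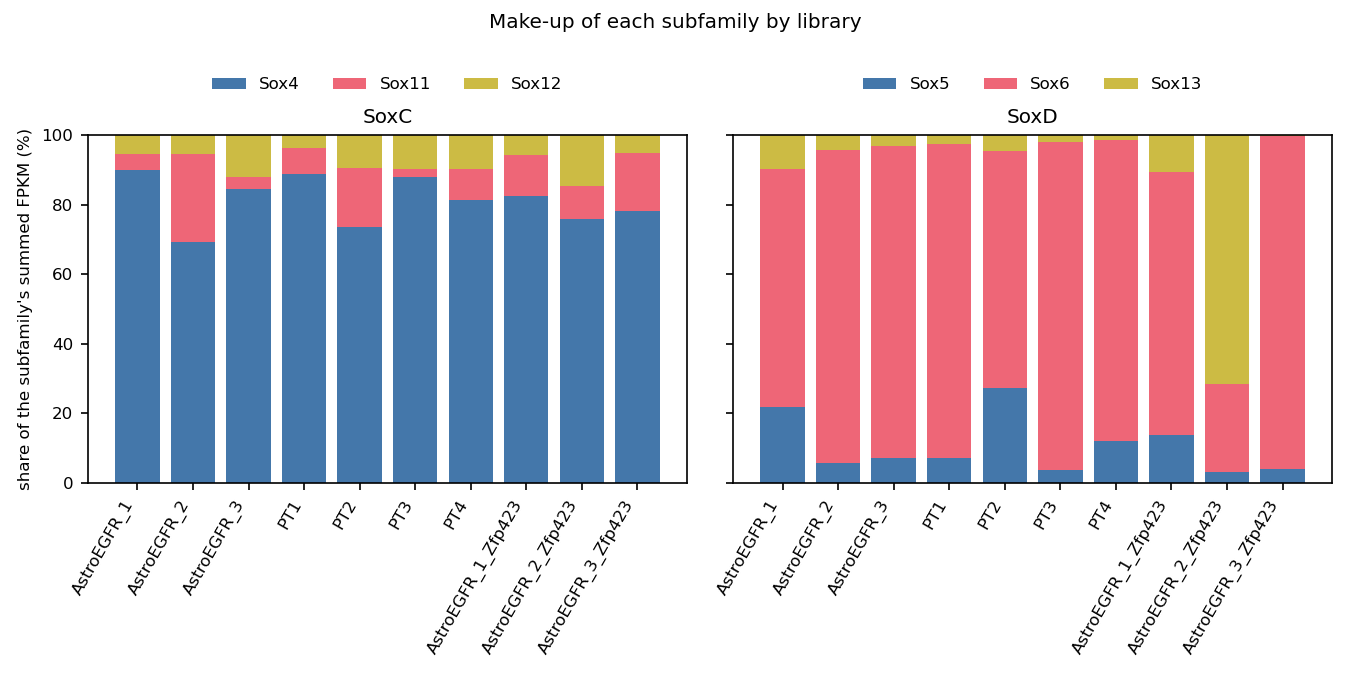
Stacked bars give the share of each gene, in percent of the summed FPKM of its subfamily, for the 10 libraries on the horizontal axis, with SoxC on the left and SoxD on the right. Sox4 fills at least 69.3% of every SoxC bar, and Sox6 at least 68.2% of every SoxD bar except that of AstroEGFR_2_Zfp423, where Sox13 fills 71.7%.

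By their mean on the log2(FPKM + 1) scale the order in AstroEGFR was Sox4, Sox6, Sox11, Sox12, Sox5 and Sox13. Each gene was above the next in 3 of 3 libraries except Sox11, which exceeded Sox12 in 1 of 3, so these neighbours did not differ beyond their spread. In PT the order was Sox4, Sox6, Sox12, Sox11, Sox5 and Sox13, again with Sox11 and Sox12 not separated (2 of 4 libraries each way) and every other step holding in 4 of 4. In AstroEGFR_Zfp423 only the step from Sox4 to the next gene, Sox11, held in 3 of 3.

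The comparison of PT with AstroEGFR asks what changed on the way from precursors to propagating tumour cells. None of the 6 genes differed between PT and AstroEGFR beyond the spread of the libraries. With limma on log2(FPKM + 1), a scale that understates the change of weak genes, 0 of the 5 members that had a mean of at least 1 FPKM passed a Benjamini-Hochberg adjusted p of 0.05, where 1.24% of the 12261 features tested did (0.318% higher and 0.922% lower in PT). Sox13 was under that filter. Sox4 had a mean log2(FPKM + 1) of 6.03 ± 0.57 in AstroEGFR (SD, n = 3) and of 6.70 ± 0.80 in PT (SD, n = 4). Its log2 fold change was thus 0.66 (SE 0.48, 95% interval -0.45 to 1.78, limma adjusted p = 0.618). Sox12 gave 0.65 (SE 0.42, interval -0.32 to 1.62, limma adjusted p = 0.563). Sox11 gave 0.52 (SE 0.78, interval -1.29 to 2.33), the widest interval of the 5. The SoxD genes had still smaller differences, 0.31 (SE 0.46, interval -0.76 to 1.37) for Sox6 and 0.28 (SE 0.65, interval -1.24 to 1.80) for Sox5. The upper bounds leave room for increases of 1.37 to 2.33 log2 units, so these libraries do not show that the members stayed the same. The exact two-sided permutation p, which like this fit takes no account of the astrocyte batch, ranged from 0.229 for Sox12 to 0.771 for Sox5 over the 6 genes, where the smallest possible is 0.0286. No member separated the 2 groups without overlap, which 14.8% of all tested features did. With the astrocyte batch as a block, 475 features passed in place of 152, and still 0 members, Sox4 having the lowest adjusted p of the members (0.186, unadjusted 0.0445, limma log2 fold change 0.47, SE 0.18).

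Compared with the AstroEGFR library of its own batch, Sox4 was higher in each of the 4 PT libraries, by 0.63 in PT1, 0.69 in PT4, 0.06 in PT2 and 0.63 in PT3 on the log2(FPKM + 1) scale. Each of these pairs is 1 library against 1, which carries no test, and PT1 and PT4 share 1 parent. Sox12 was likewise higher in 4 of 4, by 0.09, 1.54, 0.65 and 0.24 in the same order. Sox13 was lower in 4 of 4, by -0.93, -0.94, -0.05 and -0.22.

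The others went different ways in different batches. Sox11 was higher in both PT of batch 1 (1.14 in PT1 and 1.60 in PT4), close to its parent in PT3 (0.07) and lower in PT2 (-0.57). Sox6 followed the same split, with 0.62 in PT1 and 1.31 in PT4 against -0.56 in PT2 and -0.17 in PT3. Sox5 was highest against its parent in PT2 (1.44) and lowest in PT1 (-1.03). The background of each pair is every feature that averaged 1 FPKM or more in it, which all 6 members reached in PT1 and PT4, 5 in PT2 and 4 in PT3. Counting differences of at least 1 log2 unit, PT4 had 3 of 6 members higher, where 9.84% of all features were, and PT3 had none, where 8.94% of features were higher and 14.0% lower. PT1 had 1 higher and 1 lower, where 7.98% and 10.6% of features were, and PT2 1 higher, where 13.9% were.

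PT1 and PT4 also stood apart in the summed FPKM of 7 oligodendrocyte precursor genes, most of which was Olig1 (1000 FPKM in PT1 and 1089 FPKM in PT4), though without it the sums were still 484 and 697 FPKM against 67.7 in the parent. With it the sum was 1484 in PT1 and 1786 in PT4 against 244 in the shared parent, while it was 184 in PT2 and 143 in PT3 against 157 and 69.7. Pdgfra did not follow in PT1, at 1.25 FPKM against 1.48 in the parent, and Gpr17 was near 0 in both, at 0.0311 against 0.00436 FPKM. Sox10, the partner that SoxD factors are known to restrain in this lineage, was listed at 8.18 FPKM in PT1 and 117 FPKM in PT4 and at no more than 0.103 FPKM in the other 8 libraries. The 2 libraries with Sox10 were thus also the 2 with the most Sox6, Sox4 and oligodendrocyte precursor transcripts. Other marker sums moved too. Fibroblast and meningeal markers summed to 53.9 FPKM in PT1 and 59.1 FPKM in PT4 against 324 in their parent, microglia markers to 1.58 and 2.65 against 14.7, and endothelial markers to 10.4 and 9.87 against 1.61. Nearly all of the endothelial sum in PT1 and PT4 was Flt1, at 10.4 and 9.71 FPKM against 0.901 in the parent. Neuron markers summed to 69.9 and 121 FPKM against 28.5, but without Tubb3 to 2.16 and 21.2 against 3.42, with Stmn2 at 0 in PT1 against 3.04 FPKM. Neural progenitor markers summed to 985 and 734 FPKM against 616, but without Nes to 303 and 311 against 298, Prom1 being lower in both. Astrocyte markers summed to 2727 and 3332 FPKM against 1330, and without Fabp7 to 763 and 921 against 552, with 5 of the 8 remaining genes above the parent and 3 below it in each, Aqp4 among the latter. In these bulk samples a different number of cells of a type and a different RNA content per cell cannot be told apart, and the part of either in the Sox values was not tested.

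The comparison of AstroEGFR_Zfp423 with AstroEGFR asks what a raised level of Zfp423 changes in the precursors, which already express it. Again no member differed beyond the spread, and the direction of several depended on the batch. Limma with the astrocyte batch as a block called 0 of the 5 members tested and 0 of all 12366 features (0%), with 913 features at an unadjusted p below 0.05 (7.38%). Sox6 had the lowest mean difference, with a mean log2(FPKM + 1) of 4.02 ± 0.29 in AstroEGFR (SD, n = 3) and of 2.61 ± 1.91 with Zfp423 (SD, n = 3). Its log2 fold change was -1.41 (SE 0.89, interval -3.85 to 1.03, limma adjusted p = 0.687). It rested on batch 2, since without the Zfp423 library of that batch the value was -0.18. Sox5 gave -0.81 (SE 0.44, interval -2.01 to 0.39, limma adjusted p = 0.662), and -1.72 (SE 0.95, limma adjusted p = 0.680) with a pseudocount of 0.1. The SoxC genes gave -0.19 for Sox4 (SE 0.35), 0.47 for Sox11 (SE 0.92) and -0.07 for Sox12 (SE 0.35), all with limma adjusted p-values of at least 0.891. An exact test by sign flips within the 3 pairs cannot go below 0.25 here, and Sox5 reached that value because it was lower in 3 of 3 batches. No member separated the 2 groups without overlap, where 11.5% of tested features did.

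Batch by batch, the largest single difference was that of Sox6 in batch 2, from 18.7 to 0.340 FPKM, which is 54.9-fold lower with Zfp423 as listed (log2 difference -3.87), with Gapdh at 1.40 and 2.47 FPKM in the same pair. Only 0.863% of the features measured in that pair had a more negative difference. In the same pair Sox11 fell from 17.8 to 4.20 FPKM (-1.86) and Sox5 from 1.19 to 0.0392 FPKM (-1.07), so that 3 of 6 members were lower by at least 1 log2 unit, where 12.1% of the features that averaged 1 FPKM or more were. Sox5 and Sox13 were themselves under that mean in batches 2 and 3, and no member was in batch 1. Sox4 (-0.52), Sox12 (0.63) and Sox13 (0.07) stayed within 1 log2 unit of their parent, and none was higher by that much, where 13.0% of features were.

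Batch 3 looked different. Sox11 went from 2.06 to 17.6 FPKM, 8.57-fold higher (2.61), a difference that 1.75% of the features exceeded. Sox6 (0.23) and Sox4 (0.62) were somewhat higher, and Sox12 (-0.45), Sox5 (-0.27) and Sox13 (-0.47) lower. The parent of this pair, AstroEGFR_3, had the relative depth of 0.0738 given above. Sox11 was the only member past 1 log2 unit here, where 10.3% of all features were higher and 17.2% lower by that much. The serum-response genes, a list of 15, summed to 703 FPKM in AstroEGFR_3_Zfp423 against 6443 FPKM in this parent, and to 165 to 689 FPKM in PT and 2725 to 6610 FPKM in the other 4 astrocyte libraries. The part of that difference in the Sox11 value was not tested. In batch 1 a single member passed that limit, Sox5 with -1.08, where 8.10% of features were lower (11.7% higher), beside smaller differences for Sox4 (-0.67), Sox6 (-0.59), Sox13 (-0.42), Sox12 (-0.38) and Sox11 (0.66). Sox11 thus moved in opposite directions in batches 2 and 3, in which Zfp423 was at 9.73 and 105 FPKM. In batch 1, with Zfp423 at 15.7 FPKM, Sox11 was higher by 0.66. Whether these directions go with the level of Zfp423 was not tested.

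**Figure D3:**
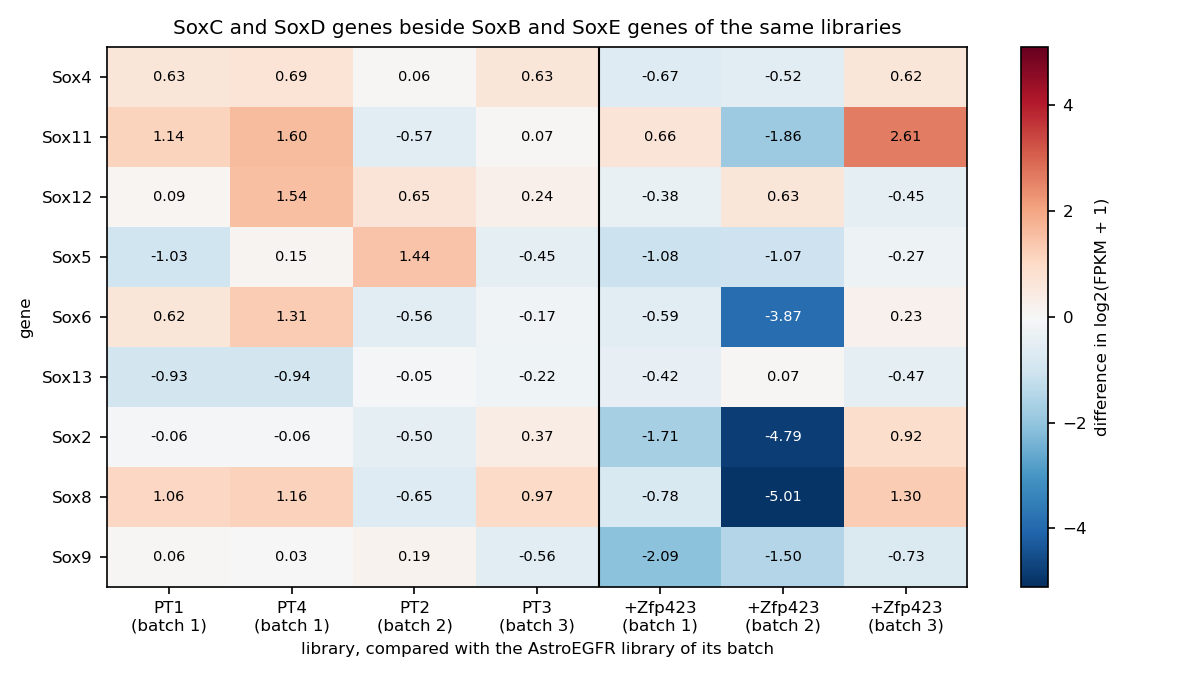
Cells give the difference in log2(FPKM + 1) between a library (columns, by batch, PT left of the line and AstroEGFR_Zfp423 right of it) and the AstroEGFR library of its batch, for the 6 genes and for Sox2, Sox8 and Sox9 (rows). Red is higher and blue lower than the parent. In batch 2 with Zfp423, Sox6 (-3.87) sits with Sox2 (-4.79) and Sox8 (-5.01), while Sox4 (-0.52) and Sox12 (0.63) differ little.

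The SoxB and SoxE partners of these factors are shown beside them. Sox2, the progenitor factor said to lie downstream of Sox4 in glioma, went from 266 to 80.7 FPKM in batch 1, from 114 to 3.15 FPKM in batch 2 and from 74.4 to 141 FPKM in batch 3. Sox4 had the same sign as Sox2 in all 3 batches. Its differences were much smaller in batches 1 and 2, the 36.1-fold lower Sox2 of batch 2 coming with 1.45-fold lower Sox4. In batch 3 they were closer, Sox4 going from 53.7 to 83.1 FPKM. Sox9, a partner of Sox5 and Sox6, was lower with Zfp423 in 3 of 3 batches, from 57.0 to 12.6, from 16.2 to 5.08 and from 37.0 to 21.8 FPKM. Its log2 fold change of -1.44 (SE 0.34) had a limma adjusted p = 0.628. Sox8, a SoxE factor of glia, was 81.7-fold lower in batch 2, from 51.3 to 0.628 FPKM, and higher in batch 3.

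The libraries with Zfp423 also differed in markers of other cells. The 9 microglia markers summed to 1226 FPKM in AstroEGFR_1_Zfp423 and 794 FPKM in AstroEGFR_2_Zfp423, with 9 of 9 above 0, against 6.86 to 39.8 FPKM in AstroEGFR and 0.219 to 2.65 FPKM in PT. C1qa, a complement gene of microglia, reached 433 and 290 FPKM in these 2 libraries, while in AstroEGFR_3_Zfp423 the list summed to 0.156 FPKM with C1qa, C1qb, Aif1 and Itgam at 0. The 39.8 FPKM of its parent AstroEGFR_3 was almost all Tmem119 (38.0 FPKM), the other 8 markers summing to 1.85 FPKM there and to 0.105 FPKM with Zfp423. The same 2 libraries held fibroblast and meningeal markers at 4571 and 6290 FPKM against 324 and 523 in their parents, and astrocyte markers at 668 and 59.7 FPKM against 1330 and 1770. In AstroEGFR_3_Zfp423 the fibroblast and meningeal sum was lower than in the parent, at 229 against 5186 FPKM. Its astrocyte sum of 2811 against 1441 FPKM was higher through Fabp7 alone (1906 against 393 FPKM), and without that gene it was 904 against 1048 FPKM, with 5 of 8 genes lower. Sox6, Sox2 and Sox4 were lower than in the parent in the 2 libraries whose microglial and fibroblast sums were higher, and higher in AstroEGFR_3_Zfp423, whose fibroblast sum was lower. The other members and Sox9 did not share this split. Sox5 and Sox9 were lower in each of these libraries and Sox11 was higher in AstroEGFR_1_Zfp423. Sox12 and Sox13 were higher in AstroEGFR_2_Zfp423 and lower in AstroEGFR_3_Zfp423. The part of other cells in the Sox differences was not tested, and leaving out both libraries would leave 1 pair and no test.

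**Figure D4:**
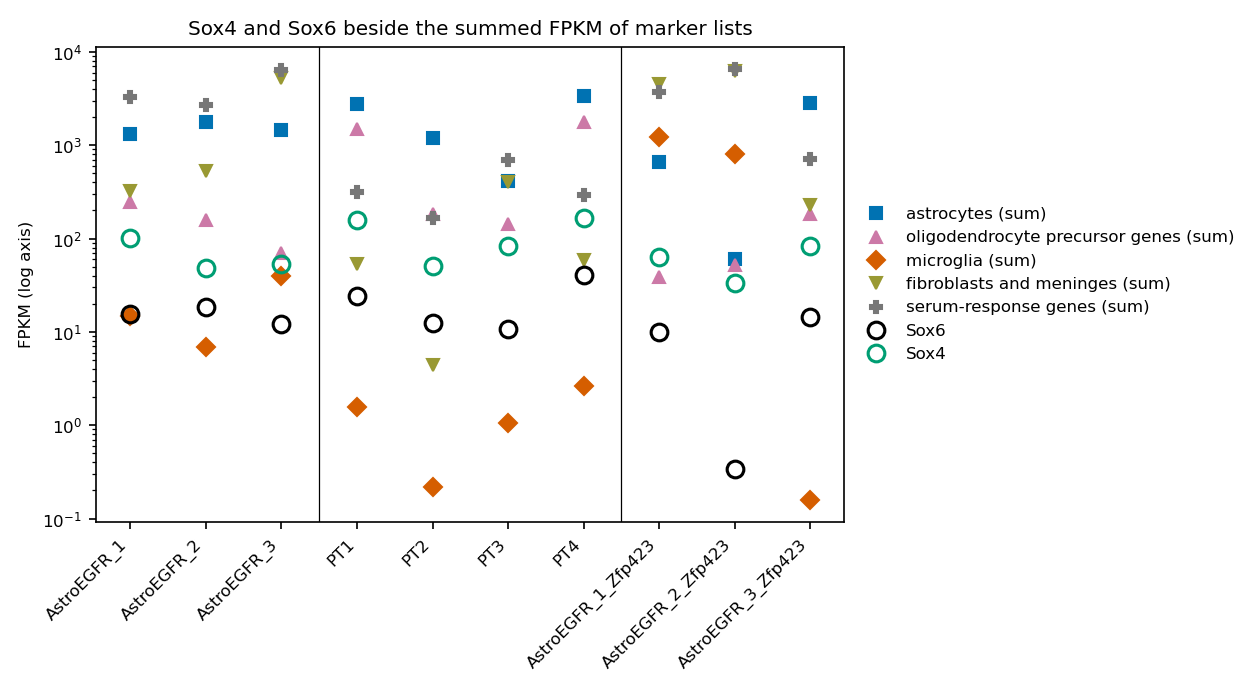
The logarithmic vertical axis gives FPKM and the horizontal axis the 10 libraries, with lines between the 3 groups. Filled symbols are summed FPKM of marker lists and open circles are Sox4 and Sox6. In AstroEGFR_2_Zfp423 Sox6 is at 0.340 FPKM and the astrocyte sum at 59.7 FPKM, and Sox4 at 33.7 FPKM, the lowest of each, while the microglia sum is 794 FPKM.

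Genes known to act around these factors were counted from lists, beside a median over all features of 0.03 in the first comparison and 0.02 in the second. Of the 8 genes of the TGF-beta axis above Sox4, 4 had a higher and 4 a lower mean in PT than in AstroEGFR, with none called and a median log2 fold change of -0.08. The receptor Tgfbr2 gave -0.51 (SE 0.49) and the common mediator Smad4 0.15 (SE 0.24). The ligands differed most and in both directions, with Tgfb3 at -2.58 (SE 0.50, limma adjusted p = 0.0633), Tgfb1 at -1.64 (SE 0.62) and Tgfb2 at 1.21 (SE 0.46). With Zfp423 the same list had a median of 0.17 and no call. Of 5 genes known as SoxC targets none was called in PT (median 0.49), with Tubb3, the neuronal tubulin, at 0.49 (SE 0.65) and Tead2, a Hippo pathway factor, at 0.23 (SE 0.40), and none of 4 was called with Zfp423 (median -0.61).

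The lists around SoxD gave no call either. Of the oligodendrocyte genes that SoxD factors restrain, 6 were measured in the PT comparison, 5 of them with a higher mean (median 1.43). Sox10 gave 2.52 (SE 1.57, limma adjusted p = 0.551), and the 2 genes of the list with the highest FPKM did not pass either, Olig1 at 1.72 (SE 1.11, limma adjusted p = 0.570) and Olig2 at 2.44 (SE 0.93, limma adjusted p = 0.309). With Zfp423 the median was -1.22 over 5 genes. The cartilage genes that SoxD factors drive with Sox9 had medians of -0.10 over 6 genes and -0.56 over 4. Of the other Sox genes 8 were tested in PT with none called (median 0.44) and 5 with Zfp423, all 5 with a lower mean and none called (median -1.44).

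The serum-response genes, listed because the media of the groups differ, had 8 of 15 called lower in PT, where 0.922% of all tested features were. Furthest were Tagln at -7.79 (SE 0.62) and Acta2 at -7.78 (SE 0.86), both contractile genes (limma adjusted p = 0.00471 and 0.0109). Thbs1, a matricellular protein, fell by 6.28 and Cnn1, a calponin, by 5.54. Fos at -0.50 (SE 0.82), Egr1 at 0.20 (SE 0.83) and Junb at 0.05 (SE 0.38) were not called. The part of the medium in these differences was not tested. All 8 fibroblast and meningeal markers had a lower mean in PT (median -3.66), of which 1 was called, the receptor Pdgfrb at -4.14 (SE 0.57, limma adjusted p = 0.0200). None of the tested markers of microglia (1), endothelium (1), the oligodendrocyte lineage (7), astrocytes (9), neurons (4) or neural progenitors (6) was called in PT.

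The features whose pattern over the 10 libraries was most like that of each member were taken from the 9018 features that averaged 5 FPKM or more, by Pearson's r of log2(FPKM + 1). The 10 libraries share batches and differ in depth and make-up, and r is given as a description only. Sox6 was followed most closely by Atp6v0e2, a subunit of the vacuolar proton pump, at 0.980, by Metrn, a secreted glial factor, at 0.968, and by P4htm at 0.961. Sox4 was followed by Ppp1r3c, a glycogen-targeting subunit of protein phosphatase 1, at 0.970, the small GTPase gene Rap2b at 0.953 and Cbll1 at 0.947. For Sox11 these were Baat1 (0.966), Sugp2 (0.928) and Pdik1l (0.926), for Sox12 Rnd2 (0.945), Hlx (0.889) and Med26 (0.876), and for Sox5 Ptgr2 (0.938), Tmem158 (0.926) and Pcdhgb1 (0.916). No feature was shared between these sets of 3, and Sox13 was too weak for the ranking.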

How the data were processed

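RNAseq values of 10 libraries were used (3 AstroEGFR, 4 PT, 3 AstroEGFR_Zfp423), with groups taken from the sample titles and PT batches from the study. The authors deposited 1 matrix of FPKM values. Per the submitters' processing notes these were made with TopHat 1.3 and Cuffnorm on mm9. The labels name a TruSeq kit and a lentiviral Zfp423 vector, the paper ribosomal RNA removal with stranded libraries and a retroviral vector.

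Both comparisons were fitted on log2(FPKM + 1) in R 4.3.3 (limma 3.58.1, moderated by empirical Bayes with trend), over features that averaged 1 FPKM or more, with Benjamini-Hochberg adjustment over these and a threshold of 0.05. The Zfp423 comparison had the astrocyte batch as a block. No count model was run, since reads per feature were not used here. In PT and AstroEGFR the deviations from the group means correlated at 0.346 to 0.499 within a batch and at -0.340 to -0.0914 between batches. In AstroEGFR_Zfp423 the correlations were -0.262 to 0.241 within a batch and -0.232 to 0.308 between batches. These correlations did not set the pairs apart, and the pairing there comes from the titles. Exact permutation tests and sequence searches used scipy 1.17.1, pandas 2.3.3 and numpy 2.4.6 in Python 3.11.15. Figures were drawn with matplotlib 3.10.9. The scripts were tested on simulated data. Promoter sequences are those of RefSeq on GRCm38.p6 and gene models those of GENCODE M21.

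All members were named in every library. Of each list the called genes, at most 4 per comparison, or else the 2 with the highest mean FPKM were named, besides Zfp423, Sox2, Sox9 and Sox10, and for each member the 3 most similar features outside small RNA, histone and unnamed genes. Other genes were singled out after their values were seen. The members and lists were chosen with earlier results of these data known. Alternatives were a pseudocount of 0.1, no filter, median-ratio scaling, rescaling without 800 small RNA and histone features, no trend, all 10 libraries in 1 fit, other blocks, PT1 and PT4 averaged, and each library left out.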

Additional observations from a re-analysis of the deposited data

Results flagged for a closer look

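Sox11 moved in opposite directions with Zfp423 in different astrocyte batches. In batch 3 it was higher than in the parent by 2.61 on the log2(FPKM + 1) scale (2.06 to 17.6 FPKM), and in batch 2 it was lower by -1.86 (17.8 to 4.20 FPKM). Each batch has 1 library with and 1 without the vector, so the difference between the batches was not tested.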

How the results depend on the processing

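No member passed the threshold in either comparison under any alternative, and over 144 refits of the 10 member results, some of which give the same estimate, the direction held in 130. In PT versus AstroEGFR the features called, 152, became 475 with the astrocyte batch as a replicate block, 16 with a block by title number (where PT4 has no partner and so adds nothing to the estimate, as when it is left out), 62 with all 10 libraries in 1 fit, 61 with PT1 and PT4 averaged, and 7 (without AstroEGFR replicate 1) to 123 with 1 library left out, the count also being under 100 without AstroEGFR 3 (54), PT1 (97), PT2 (70) or PT4 (58). Sox5 (-0.012) and Sox6 (-0.040) changed sign with the block by title number and without PT4, and Sox11 (-0.096) and Sox5 (-0.016) without AstroEGFR 3. Leaving out 1 library gave 0.44 to 0.99 for Sox4, -0.10 to 1.21 for Sox11, 0.33 to 0.84 for Sox12, -0.02 to 0.80 for Sox5 and -0.04 to 0.57 for Sox6. With Zfp423, 0 features called became 2 without the replicate block and 0 to 60 with 1 library left out (47 without AstroEGFR 2, 60 without AstroEGFR_Zfp423 2). Without either library of batch 1 Sox4 (0.050) and Sox12 (0.091) changed sign, and without either of batch 3 Sox11 (-0.60) and Sox12 (0.13) did. With the batch as a block a library without its partner adds nothing to the estimate, so leaving out either library of a pair gave the same value. Leaving out 1 library gave -0.60 to 0.05 for Sox4, -0.60 to 1.63 for Sox11, -0.41 to 0.13 for Sox12, -1.08 to -0.67 for Sox5 and -2.23 to -0.18 for Sox6. With a pseudocount of 0.1 Sox5 went from -0.81 to -1.72 and Sox6 from -1.41 to -1.93. A pseudocount of 1 shrinks differences between low values more, which is arithmetic. The cause of the other shifts was not tested. The block changed no call of a member. FPKM give no counting error, so values near 0, such as those of Sox5 and Sox13, are as listed only.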
